A study of Mus musculus with 3 samples.

Results

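Keratin genes were examined in EpH4-PR cells, a mouse mammary epithelial cell line. The keratins were taken as the probes whose gene name on the array starts with Krt and a digit, with the keratin-associated proteins of hair left out, and their older names were replaced by current ones through the RefSeq accession. This gave 43 probes for 34 genes, of 41174 probes and 28655 gene names on the array. EpH4-PR cells are EpH4 cells stably transfected with the A isoform of the progesterone receptor, and were grown in DMEM with 10% FBS to about 75% confluence. The methods speak of selected clones kept under neomycin (G418), and the sources used here do not say how many clones were arrayed. RNA from 3 samples, labelled Cy5, was hybridised against a commercial mouse standard RNA, labelled Cy3, without a dye swap. A difference between the dyes at a probe therefore cannot be told apart from a difference in RNA level. Vector-transfected EpH4-EV arrays were not analysed here, so each log2 ratio below is the level in EpH4-PR cells relative to the standard RNA and says nothing of the effect of the receptor. The labels do not state whether the 3 samples came from separate cultures, so the p-values measure only the spread between these samples, which may be technical.

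Keratins are the intermediate filament proteins of epithelial cells. Each filament is built from pairs of an acidic type I and a basic type II keratin, so that a cell needs at least one gene of each type. Simple epithelia such as the luminal layer of the mammary gland are known for Krt8 with Krt18, often with Krt7 and Krt19. Basal cells, which include the mammary myoepithelium, are known for Krt5 with Krt14, and other pairs are used in the cornifying layers of skin, in mucosa and in hair.

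The promoters of 4 of the keratin genes with called probes are shown: Krt7, Krt8 and Krt18 lay above the standard RNA, and Krt20 lay below it. Not every called gene is shown, and no promoter window was available here for Krt19. Each run is the 250 bases before the gene's start, 5′ to 3′ on the gene's own strand, from RefSeq on build GRCm38.p6. Capitals mark a GC box (GGGCGG or its complement) or a TATA box (TATAAA).
Krt7 (chr15:101412153-101412402, plus strand): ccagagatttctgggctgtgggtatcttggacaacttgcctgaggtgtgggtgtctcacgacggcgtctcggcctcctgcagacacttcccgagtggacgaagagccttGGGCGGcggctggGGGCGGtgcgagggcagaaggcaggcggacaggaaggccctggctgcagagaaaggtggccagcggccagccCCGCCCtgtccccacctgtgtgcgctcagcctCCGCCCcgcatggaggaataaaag
Krt8 (chr15:102004343-102004592, minus strand): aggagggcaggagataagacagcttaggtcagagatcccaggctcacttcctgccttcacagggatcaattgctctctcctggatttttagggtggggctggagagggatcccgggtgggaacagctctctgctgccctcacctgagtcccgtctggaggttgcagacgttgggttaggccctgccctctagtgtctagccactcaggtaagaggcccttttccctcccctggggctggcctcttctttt
Krt18 (chr15:102027966-102028215, plus strand): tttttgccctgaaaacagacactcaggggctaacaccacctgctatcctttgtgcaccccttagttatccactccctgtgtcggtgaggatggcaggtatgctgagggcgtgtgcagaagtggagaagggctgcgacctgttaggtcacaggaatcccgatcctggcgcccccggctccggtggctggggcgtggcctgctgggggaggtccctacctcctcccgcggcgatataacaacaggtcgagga
Krt20 (chr11:99438154-99438403, minus strand): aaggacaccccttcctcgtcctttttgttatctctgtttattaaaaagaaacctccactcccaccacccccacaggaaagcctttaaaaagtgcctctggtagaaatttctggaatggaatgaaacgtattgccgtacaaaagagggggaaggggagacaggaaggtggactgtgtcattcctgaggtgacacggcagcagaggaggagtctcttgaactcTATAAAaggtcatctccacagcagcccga

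In EpH4-PR cells, 4 keratin genes stood above the standard RNA on all their probes (Krt7, Krt14, Krt18 and Krt8), Krt13 did so on 1 of its 2 probes, and Krt20 and Krt19 stood below it. A probe was called when limma's moderated test of the ratio against 0 gave an adjusted p under 0.05, by Benjamini-Hochberg over all probes, and the log2 ratio was 1 or more in size. By this rule 7 keratin probes were higher, or 16.3%, where 2.25% of all probes were. Another 2 keratin probes were lower, or 4.65%, where 3.85% of all probes were, a share near the background. The other 34 keratin probes were not called. The median log2 ratio was 0.06 over the keratins and -0.01 over all probes.

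Detection set where a ratio could be read. The EpH4-PR signal was flagged by the scanner software as well above background on all 3 arrays for 33 of the 43 keratin probes and on none for 6 (Krt82, Krt6a, Krt31, Krt23, Krt28 and 1 of 2 Krt12 probes). Both channels lay above the 95th percentile of the array's 314 negative control spots on all 3 arrays for 15 keratin probes, of 13 genes. All calls fell among these 15, with 7 higher, 2 lower and 6 not called. Of the 14116 probes of the whole array that met the same condition, 4.36% were called higher and 10.5% lower. The remaining 28 keratin probes had log2 ratios between -0.37 and 0.43, and none of them had a standard RNA signal above the negative controls on all 3 arrays, so a ratio near 0 there does not show equal levels.

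**Figure D1:**
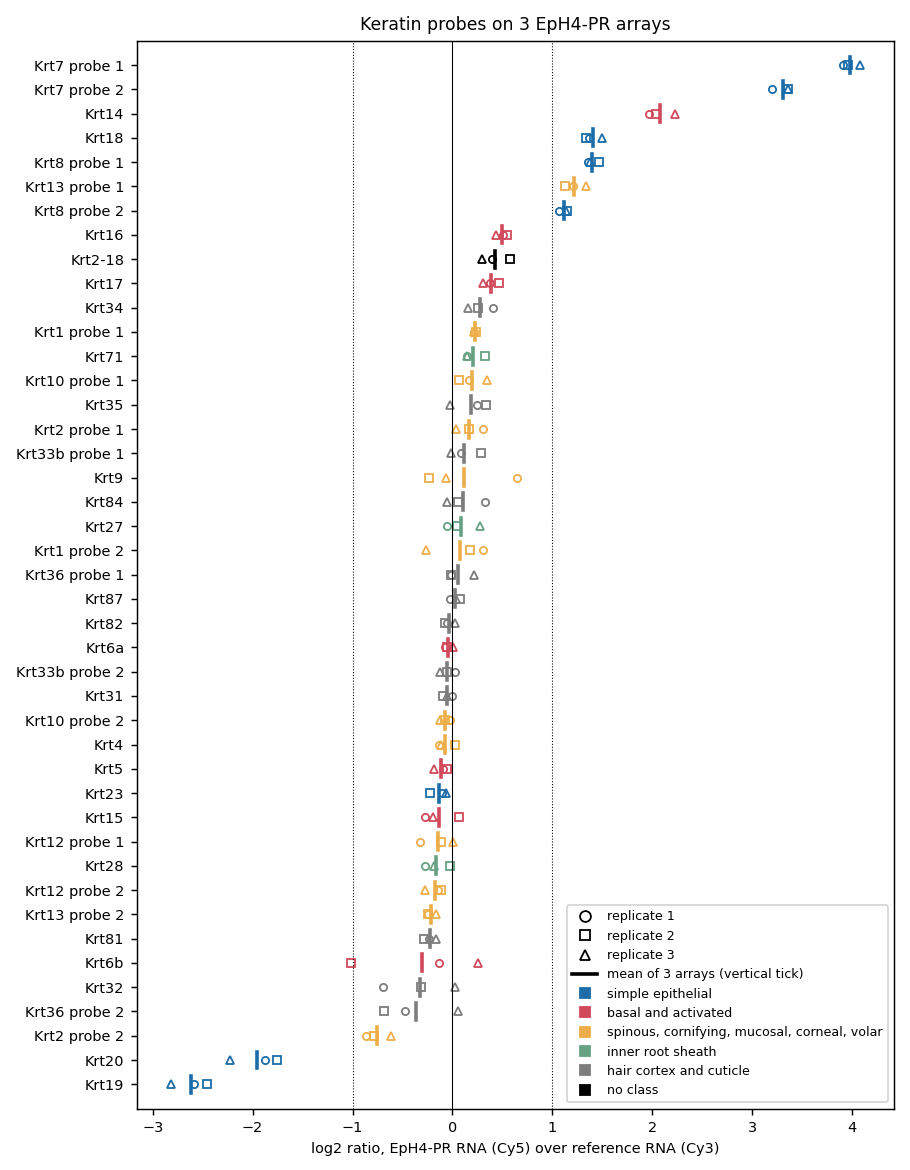
Log2 ratio of EpH4-PR cells over the standard RNA for the 43 keratin probes, ordered by their mean and coloured by keratin class, with 1 symbol for each of the 3 arrays, a vertical tick for their mean and dotted lines at the limit of 1 on both sides of 0. Krt7 lies near 4 and 3.31, Krt14, Krt18, Krt8 and a Krt13 probe lie above 1, Krt19 and Krt20 lie below -1, and the means of the hair keratins lie within -0.37 and 0.27.

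The simple epithelial keratins held most of the calls, with 5 of 8 probes higher, 2 lower and a median log2 ratio of 1.26. The shares over all probes were 2.25% higher and 3.85% lower. Krt7, a type II keratin of ducts and glands, had log2 ratios of 3.91, 3.96 and 4.08 on 1 probe (A_52_P410685). Its mean of 3.98 ± 0.09 (SD, n = 3) is a 15.8-fold higher level in EpH4-PR cells, with an adjusted p of 1.03e-05 in limma. The other Krt7 probe (A_51_P312348) read 3.20, 3.36 and 3.36, and averaged 9.89-fold. The 3 arrays agreed closely on each probe, while the probes differed by 0.71, 0.60 and 0.72 log2 on the 3 arrays, more than the SD of either.

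Krt8 and Krt18, the partners of the simple epithelial filament, were higher by similar amounts. Krt18 had log2 ratios of 1.37, 1.34 and 1.5, a mean of 1.40 ± 0.09 (SD, n = 3) or 2.64-fold, with an adjusted p of 4.36e-05 in limma. Krt8 read 1.36, 1.46 and 1.38 on 1 probe and 1.06, 1.14 and 1.14 on the other, with means of 1.40 ± 0.06 and 1.11 ± 0.04 (SD, n = 3). All ratios of both genes were positive on each array. The EpH4-PR signal of Krt18 was 53300, 46400 and 59100 on the scanner's background-subtracted scale, and its signal in the standard RNA was 6060, 5590 and 6330, so neither channel was near background. These signals were not normalised between the dyes, so their quotient is not the ratio.

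The other type I simple keratins lay on the opposite side. Krt19, which lacks the tail of other keratins and is known from luminal mammary cells, had log2 ratios of -2.58, -2.46 and -2.81. The mean of -2.62 ± 0.18 (SD, n = 3) is a level 6.15-fold lower in EpH4-PR cells than in the standard RNA, with an adjusted p of 2.75e-05 in limma. The size of the Krt19 ratio depended on the processing, and ran from -4.06 to -2.02 over other settings. Krt20, known from intestinal and urothelial lining, read -1.88, -1.76 and -2.23, or 3.87-fold lower on average, with an adjusted p of 9.89e-05. All 3 arrays were negative for both genes, and the EpH4-PR signal was low but still above the negative controls. It was 32.2, 35.5 and 29.3 for Krt19 and 37.7, 46.4 and 36.3 for Krt20, where the 95th percentile of the negative controls was 12.0, 12.4 and 7.74. The standard RNA gave 269, 242 and 270 for Krt19 and 175, 166 and 187 for Krt20. Krt23, the remaining simple keratin, was not well above background in EpH4-PR cells on any array.

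**Figure D2:**
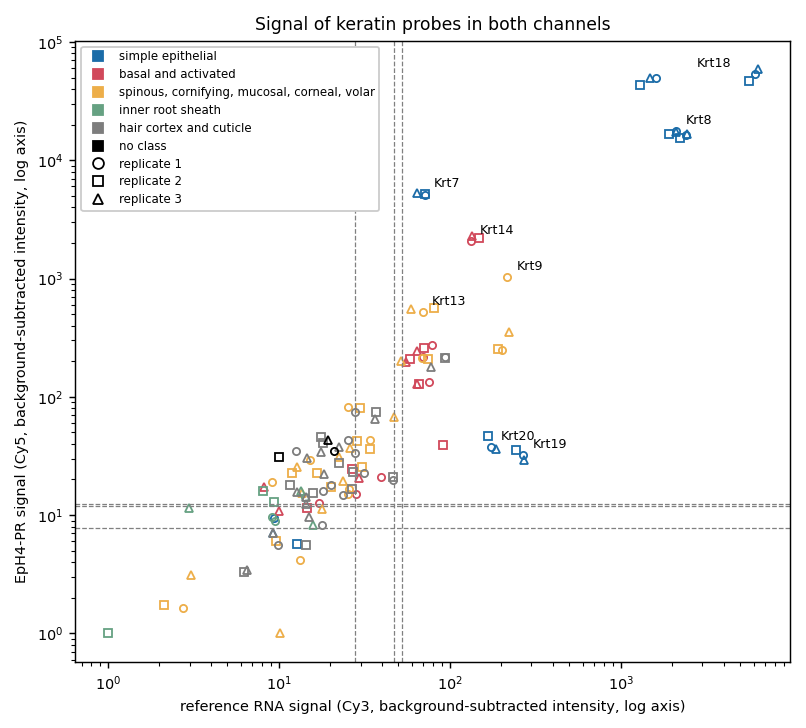
Background-subtracted signal of each keratin probe in EpH4-PR cells (Cy5) against the standard RNA (Cy3), both on log axes, with 1 symbol for each probe on each of the 3 arrays, coloured by keratin class, values under 1 drawn at 1 and dashed lines at the 95th percentile of the negative control spots of each array. The called probes lie beyond the lines in both channels, most hair keratins lie to the left of the lines for the standard RNA, and Krt9 is labelled at its replicate 1 point.

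Among the basal keratins, Krt14 was called and its usual partner was not. Krt14 had log2 ratios of 1.97, 2.03 and 2.23, a mean of 2.08 ± 0.14 (SD, n = 3) or 4.22-fold, with an adjusted p of 3.08e-05 in limma. Krt5, the type II partner of Krt14, read -0.09, -0.05 and -0.19, with a mean of -0.11 ± 0.07 (SD, n = 3) and an adjusted p of 0.111. The Krt14 ratios were all far above the Krt5 ratios. Both Krt5 channels were above the negative controls, at 133, 128 and 128 in EpH4-PR cells and 75.4, 66.2 and 64.4 in the standard RNA, so Krt5 was measured and its ratio was near 0. A ratio compares each gene with the standard RNA, and does not give the amount of Krt14 against that of Krt5.

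Krt16 and Krt17, type I keratins of activated and appendage epithelium that lie beside Krt14, had positive ratios below the limit. Krt16 read 0.51, 0.55 and 0.44, and Krt17 read 0.38, 0.46 and 0.31, with adjusted p of 0.000722 and 0.00246 in limma. Krt15 averaged -0.13 ± 0.18 (SD, n = 3), and Krt6a, a partner of Krt16 in activated skin, was not well above background in EpH4-PR cells on any array. Krt6b read -0.14, -1.02 and 0.26, so its arrays did not share a sign, and its mean of -0.30 became 0.06 without replicate 2. In all, 1 of 7 basal probes was called and the median log2 ratio was -0.04. Over all probes 2.25% were higher and 3.85% lower, and with 7 probes a single call sets the share. Near-identical type I genes such as Krt14, Krt16 and Krt17 may share hybridisation, which was not tested, since probe sequences were not used here.

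Markers of the myoepithelium, the mammary layer that carries Krt5 and Krt14, were not called higher beside Krt14. None of their 15 probes was higher and 3 were lower (Acta2 on 2 probes and Mylk on 1), with a median log2 ratio of -0.16. Over the whole array 2.25% of probes were higher and 3.85% lower, so none higher among 15 lies near the background. Another Acta2 probe (A_51_P450957) had a log2 ratio of 0.60 and was not called, so the Acta2 probes disagreed. Summed over the 15 probes the EpH4-PR signal was 7140, 7410 and 7140, of which that probe gave 84.2%, and 5 probes were not well above background in EpH4-PR cells on any array. The 3 probes of Trp63, a factor known to drive Krt5 and Krt14, had log2 ratios of 0.02, -0.16 and -0.23, and 2 of them gave no signal above the negative controls. In bulk RNA, fewer cells of a type and less RNA per cell cannot be told apart.

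The keratins of cornifying, mucosal and corneal epithelium were mostly not called, with 1 of 12 probes higher and a median of 0.00. Over all probes 2.25% were higher and 3.85% lower, and 1 call among 12 is too few to compare with these shares. Krt13, a type I keratin of internal stratified epithelia, had log2 ratios of 1.21, 1.12 and 1.33 on 1 probe (A_51_P307964), or 2.33-fold on average. Its other probe (A_52_P430886) read -0.25, -0.24 and -0.16. The Krt13 probes differed by 1.46, 1.37 and 1.495 log2 on the 3 arrays, so a higher level of Krt13 rests on 1 probe. The called probe gave a standard RNA signal of 69.7, 81.0 and 59.5. The probe that was not called gave one below the 95th percentile of the negative controls, so its ratio does not show an equal or lower level.

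Krt2, a late keratin of the epidermis, also differed between its probes. One probe read -0.86, -0.78 and -0.62, with a mean of -0.75 ± 0.13 (SD, n = 3) and an adjusted p of 0.000479 in limma, and the other averaged 0.17. Krt9, the keratin of palm and sole, read 0.65, -0.23 and -0.06. Its EpH4-PR signal was 1030 on the replicate 1 array against 36.1 and 30.8, and its standard RNA signal was 217 there against 34.1 and 22.3, so that array stood apart in both channels. Without replicate 1 the Krt9 mean was -0.15. Krt10, the type I keratin of the spinous layer, averaged 0.19 on 1 probe (adjusted p = 0.0611 in limma) and -0.07 on the other. Krt4, the partner of Krt13, was well above background in EpH4-PR cells on 1 array.

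None of the 12 hair keratin probes and none of the 3 inner root sheath probes was called. Over all probes 2.25% were higher and 3.85% lower, so no call among so few probes lies near the background. The hair probes ran from -0.37 for a Krt36 probe to 0.27 for Krt34, with a median of 0.00. Just 1 of them, a Krt33b probe, exceeded the negative controls in both channels on all 3 arrays, at 217, 212 and 180 in EpH4-PR cells, and its log2 ratio was -0.05. Krt71 and Krt27 of the inner root sheath averaged 0.21 and 0.09, and no inner root sheath probe was above the negative controls in both channels. The probe still named Krt2-18 in the array's design, which the RefSeq table did not match, read 0.40, 0.58 and 0.30.

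Replicates were close for the called keratins. The median SD over the 3 arrays was 0.106 for keratin probes and 0.0932 for the called ones, against 0.0866 for all probes. The widest keratin SD was that of Krt6b, at 0.65. The 3 ratios had 1 sign for 26 of the 43 probes, and no keratin spot was saturated or an outlier. Of the 9 genes with several probes, 8 had the same outcome on all of them, with Krt13 the exception. The precision is limited by the number of arrays.

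By keratin type, 3 of 25 type I probes were higher and 2 lower, and 4 of 18 type II probes were higher and none lower. Of all probes 2.25% were higher and 3.85% lower. The higher type II probes were all of Krt7 and Krt8, each with more than 1 probe, while each type I call was of a separate gene. The probe counts therefore do not show more type II than type I genes to be higher. Type I genes lie together on chromosome 11 and type II genes on chromosome 15, and Krt18 is the type I gene that lies among the type II genes, beside Krt8. The neighbours Krt8 and Krt18 were both higher. On chromosome 11, Krt19 lies between Krt15 and Krt9, Krt20 between Krt12 and Krt23, and Krt14 between Krt9 and Krt16. None of these flanking genes was called. Among them only Krt16 exceeded the negative controls in both channels on all 3 arrays, so the other flanking genes cannot be read as equal to the standard RNA. Of the 19 genes measured on chromosome 11, 2 were higher (Krt13 by 1 probe) and 2 lower, and of the 14 on chromosome 15, 3 were higher. Another 12 probes matched a keratin gene, 7 by accession and 5 by a synonym, under a name outside the rule, and 1 of these, Krt80, the left neighbour of Krt7, was higher at 1.03.

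The promoter windows differed in these motifs. The Krt7 window shown above holds 4 GC boxes, at 141 and 128 bases before the start on the gene's strand and at 56 and 24 on the other, and it was the only one of 22 keratin genes with a window to hold any. Over all 32851 windows of this length, 32.7% hold a GC box on either strand. A TATA box was in the windows of 11 of the 22 keratin genes, Krt20 among them at 29 bases before the start, against 12.4% of all windows. The Krt8 and Krt18 windows held neither, nor the AP-1 motif (TGANTCA, found in the Krt13 window alone among keratins and in 6.75% of all) nor the CACCC box (CCACACCC, in 4 keratin genes and in 3.20% of all). Both strands were searched and overlaps were counted apart. A match is a description of the letters, and nothing was measured on the binding of a factor.

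Genes of the keratin network and its surroundings were read beside the keratins: anchors and binding proteins, cornified envelope proteins, other intermediate filaments and transcription factors. Over all these lists, 15 of 104 probes were higher and 3 lower, with a median log2 ratio of 0.16, where 2.25% of all probes were higher and 3.85% lower. The counts of each list are to be read against these shares, and with lists this small a single probe moves them. Among the plakins and desmosomal anchors, which tie keratins to cell junctions, 7 of 32 probes were higher and none lower. The highest were Pkp3, a plakophilin, at 2.65, Dsp, the desmoplakin that binds keratins directly, at 2.41, and Evpl, envoplakin, at 2.39. Other probes of the same genes read lower, Dsp at 1.63, 0.19 and 0.10 and Evpl at 0.78. The lowest were Macf1, Plec and Dsg2 at -0.66, -0.48 and -0.33, which were not called.

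The hemidesmosome, which holds keratins to the basement membrane, gave 2 higher probes of 14, both of Itgb4 (2.91 and 2.73). It gave 1 lower, of its partner integrin Itga6 (-1.23). Another Itgb4 probe read 0.29 and another Itga6 probe read -0.51, and neither was called. In the list drawn up for keratin-binding and regulatory proteins 3 of 16 probes were higher. They were of Fam83h, a keratin-binding protein, at 1.28 and of Krtcap3 (2.33 and 1.86). Krtcap3 is named as a keratinocyte-associated protein, and nothing here shows that it binds or regulates keratins. None of the 6 cornified envelope probes was called. Of the other cytoplasmic intermediate filaments, 1 of 18 probes was higher (Nefh, a neurofilament, at 1.81), while the other Nefh probe read 0.64. Another 2 were lower, with Nes at -1.58 and Vim, the filament protein of mesenchymal cells, at -6.51 on 1 of 2 probes. Among transcription factors known for epithelial keratin expression 2 of 24 probes were higher, Grhl2 at 2.75 and Gata3 at 1.39, while the other Grhl2 probes read 0.16 and 0.02.

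The labelled epithelial type was checked against its markers. Of 24 epithelial probes 12 were higher and none lower, where 2.25% of all probes were higher and 3.85% lower, with Cdh1, E-cadherin, highest at 4.29 and a median of 1.06. Their summed signal in EpH4-PR cells was 22700, 20700 and 22500, of which the Cdh1 probe gave 21.1%. Of 30 mesenchymal probes none was higher and 14 were lower, with a median of -0.91. Their summed EpH4-PR signal was 20400, 17300 and 19800, of which 70.9% came from 1 probe of S100a4, a calcium-binding protein, whose log2 ratio was -2.76. A Vim probe was still well above background in EpH4-PR cells on all 3 arrays, at 1010, 854 and 861. Blood and endothelial markers gave 3 lower probes of 11, and adipocyte markers gave none of 5. The make-up of the standard RNA is not given in the sources used here, so how far a ratio reflects its make-up was not tested.

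**Figure D3:**
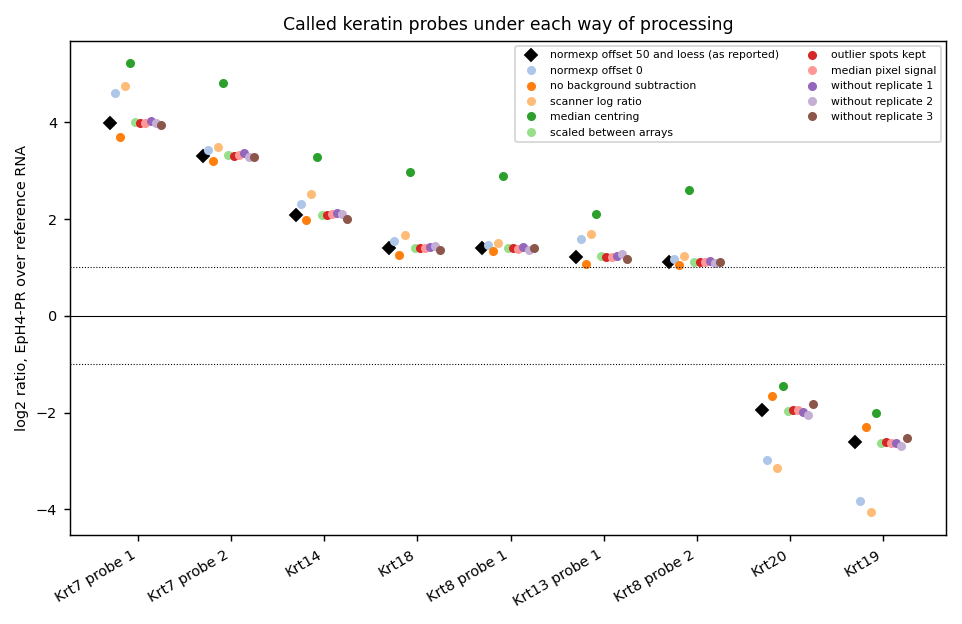
Log2 ratio of the 9 called keratin probes under the reported processing and under the alternatives that change the ratio, with 1 point for each setting. Each probe keeps its side of 0 and stays beyond the limit of 1 in all of them, while the size of the ratio shifts, for Krt7 from 3.69 to 5.22 on 1 probe.

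The calls did not turn on the processing for these 9 probes, as the plot of ratios by setting shows, but the sizes did. Krt19 ran from -4.06 to -2.02 and Krt14 from 1.98 to 3.27 over the settings. With plain median centring in place of loess, Krt16 and Krt17 passed the limit too, at 1.20 and 1.01, and Krt5 stood at 0.41. Under that setting 90.8% of all calls on the array were higher, against 36.9% as reported, so it shifted the balance of the whole array and not only of the keratins.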

How the data were processed

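Expression was measured on 3 Agilent arrays of 2 colours. Cy5 carried the RNA of the EpH4-PR cells and Cy3 a purchased mouse standard. The deposited files hold spot intensities and log10 ratios made by the authors' contractor with Agilent Feature Extraction 8.1.1.1, per the file headers. A deposited table of the authors' own fold changes and p-values was not used. It holds a comparison whose sides the table does not name. All arrays form 1 group, and the standard RNA is no sample of a group.

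Mean signals were background-corrected by normexp (offset 50) and loess-normalised within each array, with control spots given weight 0, in limma 3.58.1 under R 4.3.3. Control and outlier spots were left out, spots of a probe were averaged, and all 41174 probes were fitted with lmFit and eBayes against 0. The offset pulls dim ratios towards 0. On simulated data with 200 probes changed by 1.5 log2, all changed probes passed the adjusted p, with a median estimate of 1.36 for bright and 0.99 for dim ones. The share that also passed the limit of 1 was not counted. The dim median lay just under that limit, so dim probes with such a change can go uncalled. Signals of different probes were set together only in the summed signals of marker lists and in 1 probe's share of such a sum. Those sums and shares also depend on the probes themselves, and are no measure of the relative amounts of the transcripts. Gene names came from RefSeq (32 probes by accession, 10 by symbol or synonym, 1 kept as filed).

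Keratins with a signal well above background in EpH4-PR cells on at least 2 of 3 arrays, and the keratins usual in glands, were given values. Those not described above were Krt1, with mean log2 ratios of 0.22 and 0.07 on its probes, and some hair keratins. The latter were Krt35 (0.18), Krt84 (0.11), Krt87 (0.03), Krt81 (-0.23) and Krt32 (-0.33). Krt23 and Krt6a, described above by detection alone, averaged -0.13 and -0.04. None of these was called, and none had a standard RNA signal above the negative controls on all 3 arrays. Of the other lists, the 3 highest and 3 lowest probes with signal on all arrays could be named. Krt80, Trp63, S100a4 and some probes of Acta2, Mylk, Grhl2, Itgb4, Dsp and Evpl were named after their values were seen. The members and lists were chosen with earlier results of these data known. The alternatives were other background corrections, normalisations, filters and tests, and leaving out each array. The median signal was 38.0 to 40.8 in Cy5 and 25.6 to 31.5 in Cy3, and ratios correlated at 0.923 to 0.952 between arrays over all probes.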

Additional observations from a re-analysis of the deposited data

How the results depend on the processing

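The 9 called keratin probes kept their direction and their call in all 14 alternatives that give a ratio for each probe, and leaving out 1 array moved their ratios little (Krt7 3.94 to 4.02, Krt14 2.00 to 2.13, Krt19 -2.70 to -2.52). As reported, 7 keratin probes were higher, where 928 of all 41174 probes were. The count of higher keratin probes was also 7 when any 1 array was left out, where 924 to 944 of all probes were higher. It was 8 with a normexp offset of 0, where 3115 of all probes were higher, and 9 with median centring, where 7029 were. In both settings the array's count rose more than that of the keratins, so keratins stood out less. The keratin count was 13 by the adjusted p alone (25.6% of all probes). It was 4 when genes were counted by the mean over their probes, with no count over all genes to set beside it. The 7 probes stand for 5 genes, of which Krt13 averaged 0.50 and lost its call. The count of lower probes was 2, and 6 by the adjusted p alone (24.6% of all probes). Called basal probes rose from 1 to 3 with median centring, and Krt2-18 gave 1 call in its class with an offset of 0. Of the 34 probes that were not called, 13 had the opposite sign under at least 1 alternative, 9 of them with median centring. Of these, 2 had passed the adjusted p, Krt71, which went to -0.027, and a Krt2 probe, which went to 0.18. A Krt12 probe went to 0 with the scanner's log ratio. Counts of partner probes moved with the settings, as did those of the whole array. Under an offset of 0, the scanner's log ratio and median centring, 27, 32 and 28 of 104 partner probes were higher. Of all 41174 probes, 3115, 3616 and 7029 were higher in these settings. In the same order 11, 7 and 1 partner probes were lower, where 3909, 3887 and 709 of all probes were. Without 1 array, 14 to 15 partner probes were higher and 3 to 4 lower. Over all probes the higher share of calls was 36.9% as reported, 48.2% with the scanner's log ratio and 90.8% with median centring. The cause of these shifts was not tested. A ratio of a keratin whose signal in the standard RNA lies within the negative controls cannot show a level below it. No paired analysis was possible because there was 1 group of samples.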
